A study of Mus musculus with 28 samples.

Results

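Ldb1 peaks seen only without Lhx2 are 935 regions of the mouse genome, of the 4290 peaks (21.8%) listed for the first Ldb1 library from mature olfactory sensory neurons that had lost Lhx2. The members were chosen by the peak lists themselves: a peak of that library on chromosomes 1 to 19, X or Y was a member when it shared no base with a peak of any of the 5 Ldb1 libraries from cells with Lhx2. Their absence from those 5 lists was therefore the rule and not a finding. The remaining 3355 peaks of the same library, called here the other knockout peaks, each met a peak of at least 1 library with Lhx2.

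The series holds 28 samples, of which the 11 chromatin immunoprecipitation (ChIP-seq) libraries with a peak list were used. The 2 Lhx2 knockout (KO) libraries came from mature olfactory sensory neurons of mice with OMP-IRES-Cre, both Lhx2 copies floxed (Lhx2fl/fl) and the reporter allele Rosa-CAG-tdtom+/fl. The 3 control Ldb1 libraries came from OMP-IRES-GFP neurons, and the other 2 Ldb1 libraries with Lhx2 came from Olfr1507+ cells of M28-IRES-GFP mice, sorted on 1 receptor gene. The 2 CTCF and 2 Rad21 libraries were also made from OMP-IRES-GFP neurons. The Cre gene is driven from Omp, a gene switched on as these neurons mature, so Lhx2 was present earlier in the life of the cells. KO and control neurons also differed in the reporter they carried, and no library of Cre-bearing neurons with intact Lhx2 was used here, so allele, reporter and Cre cannot be told apart. The labels do not give the animals' age or say that replicates came from separate animals, so a p-value here measures the spread between libraries. Peak lists hold no RNA level, and neither the loss of Lhx2 nor the labelled cell type was checked from expression.

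Ldb1 is an adaptor protein that does not itself recognise DNA; LIM-homeodomain factors such as Lhx2 bring it to their sites, and its self-association can hold distant enhancers and promoters together. In olfactory sensory neurons Lhx2 and Ebf bind the enhancers of olfactory receptor genes, and Ldb1 is recruited there. CTCF is a DNA-binding insulator protein, and Rad21 is a subunit of cohesin, the ring complex that extrudes chromatin loops and often stops at CTCF.

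The members lay at gene starts more often than the rest of their own list. A gene start window is here the stretch from 250 bases before to 50 bases after a RefSeq transcription start. The 250 bases before the start are shown for 6 such members, because this is where the members were in excess: the 3 with the highest score at a gene start (Hjurp, Ddr1, Arhgap42) and the 3 with the highest score that also had a peak in the second KO list (Stag1, Fam219a and Socs3, the last tied in score with Opa3). They are RefSeq sequences of GRCm38.p6 (mm10), written 5′ to 3′ on the strand of the gene. Capitals mark matches, on either strand, to GGGCGG (Sp/Klf), CCGGAAG (Ets), CCAAT (NF-Y), TGACGTCA (CRE) or GCGCATGC (NRF1), a set of letters chosen after the peak lists had been seen.
Hjurp, chr1:88277580-88277829, minus strand: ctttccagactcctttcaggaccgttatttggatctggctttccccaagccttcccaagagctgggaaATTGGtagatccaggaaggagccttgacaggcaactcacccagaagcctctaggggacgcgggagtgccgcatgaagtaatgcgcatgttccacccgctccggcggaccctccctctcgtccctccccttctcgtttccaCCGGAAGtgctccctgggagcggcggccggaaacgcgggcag
Ddr1, chr17:35700591-35700840, minus strand: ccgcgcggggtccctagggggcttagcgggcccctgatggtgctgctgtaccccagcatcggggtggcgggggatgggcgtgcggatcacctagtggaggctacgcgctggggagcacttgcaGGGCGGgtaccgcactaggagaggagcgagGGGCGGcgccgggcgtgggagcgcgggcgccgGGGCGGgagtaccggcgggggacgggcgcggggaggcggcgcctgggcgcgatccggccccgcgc
Arhgap42, chr9:9239028-9239277, minus strand: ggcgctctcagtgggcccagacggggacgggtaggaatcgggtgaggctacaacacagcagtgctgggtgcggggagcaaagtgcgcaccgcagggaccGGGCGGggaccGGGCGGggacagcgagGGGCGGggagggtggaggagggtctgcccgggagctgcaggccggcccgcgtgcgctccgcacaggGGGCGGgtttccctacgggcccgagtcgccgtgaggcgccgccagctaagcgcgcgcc
Stag1, chr9:100643198-100643447, plus strand: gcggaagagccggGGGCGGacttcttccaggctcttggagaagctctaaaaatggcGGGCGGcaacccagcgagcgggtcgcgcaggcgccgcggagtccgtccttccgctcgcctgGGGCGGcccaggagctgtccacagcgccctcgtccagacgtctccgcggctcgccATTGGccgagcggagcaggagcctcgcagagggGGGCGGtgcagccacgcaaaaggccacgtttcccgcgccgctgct
Fam219a, chr4:41569539-41569788, minus strand: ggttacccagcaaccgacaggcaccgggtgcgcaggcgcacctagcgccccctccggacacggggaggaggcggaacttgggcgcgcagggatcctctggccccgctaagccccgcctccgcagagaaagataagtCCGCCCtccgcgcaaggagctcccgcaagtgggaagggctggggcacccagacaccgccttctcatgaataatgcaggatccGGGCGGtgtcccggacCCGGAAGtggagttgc
Socs3, chr11:117969367-117969616, minus strand: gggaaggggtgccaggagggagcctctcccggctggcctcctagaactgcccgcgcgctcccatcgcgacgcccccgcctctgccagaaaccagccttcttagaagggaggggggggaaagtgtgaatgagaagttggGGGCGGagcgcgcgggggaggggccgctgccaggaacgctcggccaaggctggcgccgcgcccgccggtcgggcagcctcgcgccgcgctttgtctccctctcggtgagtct
GGGCGG was found 3 times in the Ddr1 stretch, 4 times in each of Arhgap42 and Stag1, 2 times in Fam219a and 1 time in Socs3. The Hjurp stretch held no GGGCGG but 1 CCGGAAG and 1 CCAAT. None of the 6 stretches held TAATTA, the core that homeodomain proteins read, or TATAAA. Their G+C content ran from 60.8% at Hjurp to 78.0% at Ddr1. The peak covered only part of each stretch. It shared 243 bases with the 250 of Hjurp, 160 of Ddr1, 109 of Arhgap42, 119 of Stag1, 223 of Fam219a and 100 of Socs3. Marked letters can therefore lie outside the peak, as the GGGCGG of Socs3 did. A match is a run of letters and not a shown site.

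Of the 914 members on chromosomes covered by the table of gene starts, 323 (35.3%, 95% Wilson interval 32.3 to 38.5) overlapped a gene start window, against 493 of 3241 other knockout peaks (15.2%, 14.0 to 16.5) and 19.6% of all peaks of the list. Intervals in this text cover counting error over peaks only, and the depth behind a peak is unknown because the lists carry no read numbers. The annotated start was protein-coding at 292 of the 323 and a long non-coding RNA at 31. At 52 of them the peak met windows of 2 or more genes, on both strands, as at divergent promoters. The table held windows for 80.3% of protein-coding genes, so these shares are undercounts, distances to a start are overestimates, and peaks called away from gene starts can lie at a start without a window. Over the peaks whose nearest protein-coding gene had a window, an alternative added after the data were seen, the shares were 318 of 754 members (42.2%, 38.7 to 45.7) and 481 of 2631 others (18.3%, 16.9 to 19.8). Such a gene was nearest for 80.6% of members and 78.4% of the others. Without that table, 52.0% of members (48.8 to 55.2) and 26.1% of the others (24.7 to 27.7) lay within 1 kb of an annotated gene start or end. In all, 375 genes of the 27025 with a window (1.39%) had a member at a start. The distance to the nearest gene start had a median of 1.53 kb for members and 13.7 kb for the other knockout peaks. Within 1 kb of a gene start lay 47.5% of the members and 21.9% of the others.

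**Figure D1:**
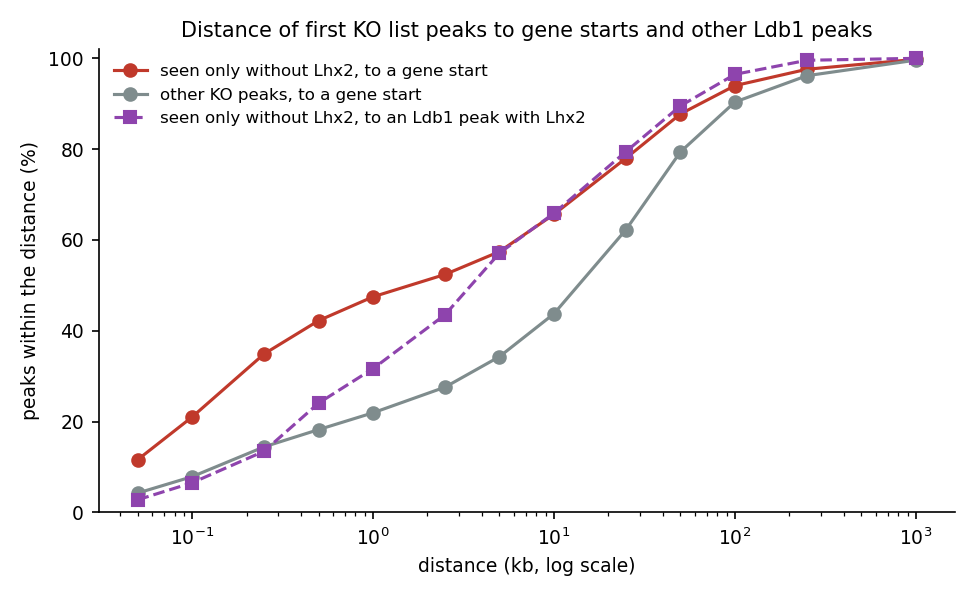
Cumulative share of peaks of the first KO list (vertical axis, percent) within a given distance (horizontal axis, kb, log scale) of a RefSeq gene start, for the members (red) and the other knockout peaks (grey), and share of members within that distance of an Ldb1 peak of a library with Lhx2 (purple, dashed). At 1 kb the red line stands at 47.5% and the grey line at 21.9%; the purple line reaches 31.7% at 1 kb and 96.5% at 100 kb.

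Counted with gene starts, gene bodies held like shares of members and of the whole list. The peak centre lay between the annotated ends of a gene in 611 of 935 members (65.3%, 62.2 to 68.3), beside 66.0% of all peaks of the list. Leaving out gene starts, 401 members (42.9%, 39.8 to 46.1) lay inside a gene, against 57.2% (55.5 to 58.9) of the other knockout peaks and 54.1% of the list. Between genes lay 211 members (22.6%, 20.003 to 25.4), at a median of 3.39 kb from the nearest one, against 28.1% (26.6 to 29.6) of the others and 26.9% of the list. Exons and introns are not in the annotation used here.

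The same rule was applied to each Ldb1 library, taking the peaks of its list that met no peak of any other library with Lhx2. In the KO libraries 323 of 914 (35.3%) and 20 of 34 (58.8%) of such list-only peaks were at a gene start. In the control libraries it was 491 of 2067 (23.8%), 625 of 4786 (13.1%) and 31 of 297 (10.4%), and in the Olfr1507 libraries 1 of 46 (2.17%) and 126 of 2452 (5.14%). Both KO libraries thus stood above all 5 libraries with Lhx2, and the Olfr1507 libraries were lowest. The KO mean was 47.1% and the mean with Lhx2 10.9% ± 8.36 (SD, n = 5), a difference of 36.2 percentage points (two-sided exact permutation test over libraries, p = 0.0476, the smallest value that 21 assignments allow). Adjusted over the 5 measures tested this way (Benjamini-Hochberg, exact permutation tests), it was 0.119 and did not pass 0.05. To pass it, all 5 measures would have needed that smallest p. Against the 3 control libraries alone, with a mean of 15.8%, the difference was 31.3 points (exact permutation p = 0.1, the smallest that 10 assignments allow). A KO peak had to miss 5 lists and a peak with Lhx2 only 4. Those 4 included the other replicates of its own group, whereas a KO peak was not held against the other KO list. Of the 35 list-only peaks of the second KO library, 10 were also in the first KO list, so the KO values share regions. List lengths differed from 542 to 28879 peaks. Cut to their strongest 4290 peaks, the length of the first KO list, the lists with Lhx2 kept only 3 to 20 list-only peaks. The part of these points in the differences was not tested.

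**Figure D2:**
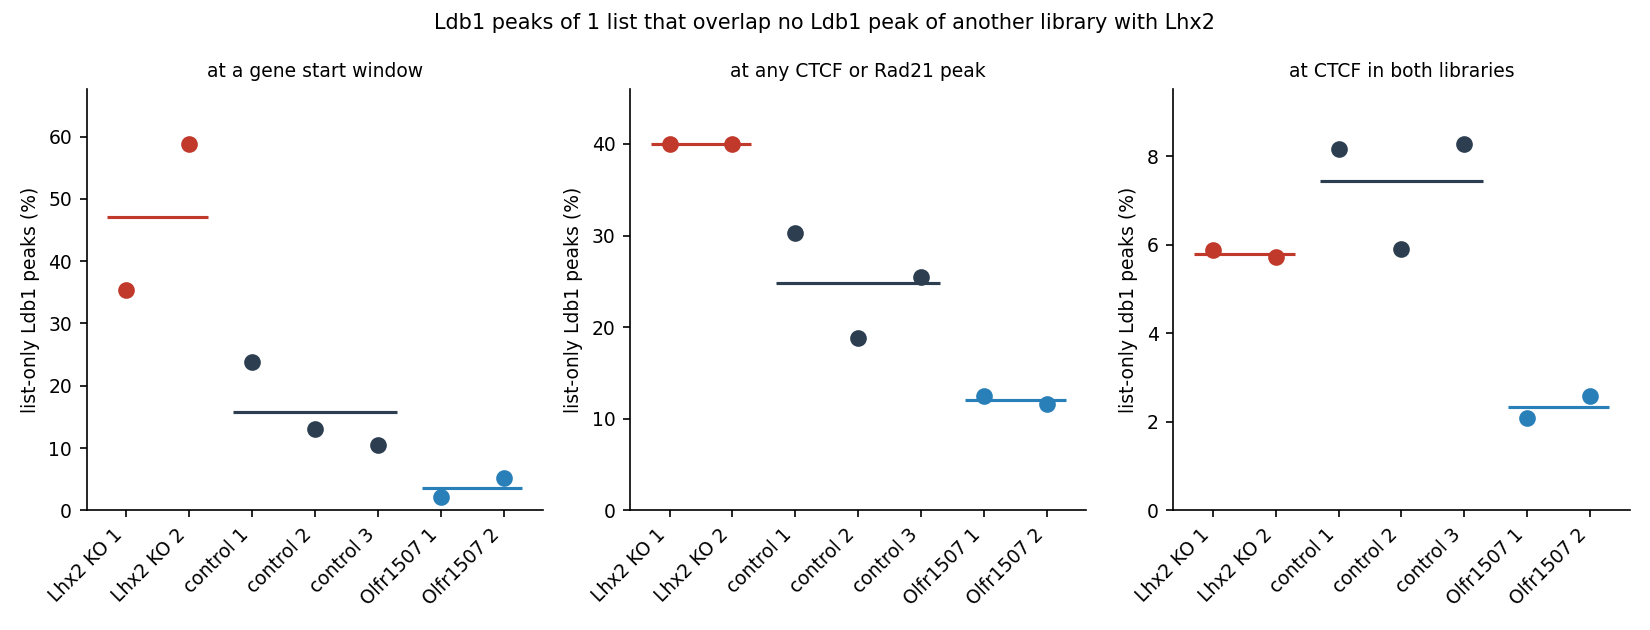
Share of list-only Ldb1 peaks (vertical axes, percent) in each of 7 libraries at a gene start window, at a peak of any CTCF or Rad21 library, and at a CTCF peak of both CTCF libraries; points are libraries and lines are group means. Lhx2 KO points stand above all others in the left and middle panels (35.3% and 58.8%; 40.0% in each) and within the range of the others in the right panel (5.88% and 5.71%).

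List-only peaks of the 3 control libraries, whose cells had Lhx2, were also more often at gene starts than their own whole lists, which was not seen in the second Olfr1507 library. In the first control library 23.8% of list-only peaks against 8.39% of all peaks were at a gene start, in the second 13.1% against 7.80%, and in the third 10.4% against 4.53%. The Olfr1507 libraries had 2.17% against 1.63% and 5.14% against 5.94%, and the second KO library 58.8% against 14.3%. Of all peaks, 19.6% and 14.3% were at a gene start in the KO lists and 1.63% to 8.39% in those with Lhx2. A higher gene start share in the KO lists was thus not particular to list-only peaks. Within the first KO list, the gene start share also fell with the number of libraries with Lhx2 that shared a peak. It was 38.1% of the peaks shared with 1 such library, 33.4% with 2, 24.3% with 3, 10.996% with 4 and 2.91% with all 5. The members, shared with none, were at 35.3%, close to the peaks shared with 1.

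Within their own list the members were weak peaks. The authors' score, a whole number used only for ranking within a list, had a median of 10 in members (quartiles 9 and 12, highest 39) and 12 in the other knockout peaks (10 and 15, highest 51). At the lowest score of the list, 9, members made up 350 of 1016 peaks (34.4%), and at scores of 21 and above 15 of 309 (4.85%). A score of 9 or 10 was held by 547 members (58.5%). The strongest member ranked 15 in the list, and 70 members had a score of 16 or more.

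Gene starts were more frequent among the weak peaks, both members and others, and at equal score members still had the higher share up to a score of 15. At a score of 9 it was 43.7% (38.5 to 49.0) of members and 23.9% (20.8 to 27.4) of other knockout peaks. At 13 to 15 it was 23.4% (16.4 to 32.2) and 8.97% (6.96 to 11.5). At 16 to 20 the shares were 9.43% and 8.46%, and above 20 only 2 members were at a gene start, too few to set the shares apart at this number of peaks.

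**Figure D3:**
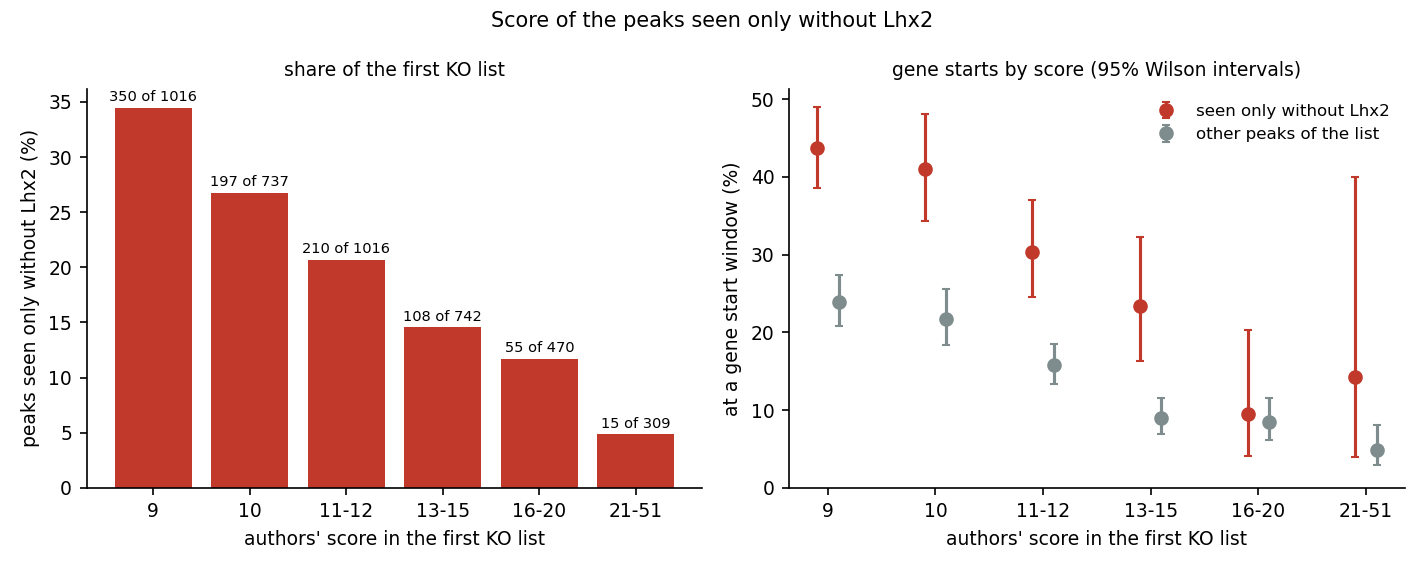
Left, percent of the peaks of the first KO list that are members, by the authors' score, falling from 34.4% at a score of 9 to 4.85% at 21 to 51. Right, percent at a gene start window with 95% Wilson intervals for members (red) and other knockout peaks (grey) in the same score bins; the intervals are apart up to a score of 15 and overlap above it.

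The strongest members lay mostly away from gene starts. The highest score, 39 (rank 15 of the list), belonged to chr1:88261739-88261982, inside the gene body of Hjurp, which encodes the chaperone that loads the centromeric histone CENP-A. A further member with a score of 25, chr1:88277579-88277822, sat at the start of the same gene. The nearest Ldb1 peak with Lhx2 was 194 kb from the one and 179 kb from the other, and neither met a CTCF or Rad21 peak. The next highest were a peak of chromosome 18 inside the non-coding gene Gm30093 (score 32) and one inside Scn4b, a sodium channel subunit gene (chr9:45141488-45141731, score 31). A score of 27 was shared by peaks inside Sec14l5 (chr16:5155226-5155469) and Gse1 (chr8:120564006-120564249), 4.704 kb from the potassium channel gene Kcnc4 (chr3:107433473-107433716) and 4.80 kb from Mn1 (chr5:111461710-111461953). The other two of the strongest 10 lay inside the non-coding gene Gm30438 (chr14:67178725-67178968, score 26) and inside Jakmip1, whose product binds microtubules (chr5:37113380-37113623, score 24, tied with 2 further members and taken by chromosome order). The start of Hjurp was the only gene start window met by these 10; the chromosome 18 peak has no window in the table.

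At gene starts the strongest members after Hjurp were at Ddr1, a collagen receptor kinase (chr17:35700681-35700924, score 21), and Arhgap42, a GTPase-activating protein (chr9:9238893-9239136, score 20). They were followed by the glycolytic enzyme gene Pgk1 (chrX:106186754-106186997, score 19), the retinoic acid receptor gene Rarg (chr15:102257513-102257756, score 18) and Akap10, a protein kinase A anchor (chr11:61930192-61930435, score 16). Stag1, a cohesin subunit gene, also scored 16 (chr9:100643329-100643572). Ppp1r32 (chr19:10482718-10482961) and Fam219a (chr4:41569518-41569761) scored 15, and Ddit3, a stress-response factor, scored 14 (chr10:127290524-127290767), tied with further members at gene starts. Members were at the starts of 4 of 351 zinc finger genes, 2 of 58 cytoplasmic ribosomal protein genes (Rpl7a and Rpl9) and 1 of 97 histone genes (H3f3a), families counted after the lists had been seen. For all protein-coding genes with a window the share was 335 of 17492 (1.92%).

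The windows at these starts were rich in C and G, and so were those under the other knockout peaks. Median G+C content was 67.7% in the 323 windows of members, 65.0% in the 493 of other knockout peaks and 52.7% in all 32851 windows of the table, and the median number of CpG dinucleotides in 300 bases was 28, 26 and 7. GGGCGG stood in 80.2% (75.5 to 84.2), 76.7% (72.7 to 80.2) and 35.7% of the windows, and CCGGAAG in 19.5%, 16.8% and 8.86%. TAATTA was in 1.55% (0.663 to 3.57), 3.25% (2.01 to 5.21) and 5.29%, and CCACCAG, the core of the CTCF motif, in 4.95%, 7.51% and 6.41%. CCCNNGGG, letters within the Ebf motif, was in 27.9%, 32.3% and 13.7%, and CCAAT in 39.3%, 42.2% and 37.4%. CANNTG was in 57.3%, 61.5% and 72.3%, CACGTG, one form of it, in 12.4%, 12.2% and 7.15%, and TATAAA in 3.41%, 4.46% and 13.6%. The remaining motifs of those searched, TGACGTCA, TGANTCA, GCGCATGC and AAGATGGC (YY1), were each in fewer than 1 in 10 windows of every set. Motif shares at members and at the other knockout peaks had overlapping Wilson intervals for each motif searched. Overlap of intervals is not a test, and a difference in motif shares was not tested.

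A peak of any CTCF or Rad21 library was found at fewer members than other knockout peaks. The gap lay in Rad21, while CTCF shares were slightly higher in members. Both factors were mapped in control neurons only, so their place in KO neurons is unknown. By the rule, members have no Ldb1 peak in those control lists, while each other knockout peak meets one of a library with Lhx2. The part of the rule in this gap was not tested. At least 1 of the 4 CTCF and Rad21 lists had a peak at 374 of 935 members (40.0%, 36.9 to 43.2), against 2013 of 3355 other knockout peaks (60.0%, 58.3 to 61.6) and 55.6% of the whole list. The first Rad21 library had a peak at 49 members (5.24%) and 12.1% of the others, the second at 316 (33.8%) and 54.7%. For CTCF the first library gave 58 members (6.20%) against 5.81% of the others, and the second 200 (21.4%) against 17.9%. A Rad21 peak of both libraries was at 43 members (4.60%, 3.43 to 6.14), against 10.1% (9.10 to 11.1) of the others and 8.88% of the list. A CTCF peak of both libraries was at 55 members (5.88%, 4.55 to 7.58), against 5.19% (4.49 to 5.99) of the others and 5.34% of the list. Among the other knockout peaks, those shared with only 1 library with Lhx2 had Rad21 of both libraries at 5.05% (3.26 to 7.76). Those shared with all 5 had it at 14.7%, so the low share was not particular to the members. The second Rad21 library alone was at 50.5% of those shared with 1, above the 33.8% of members. Of the members, 561 (60.0%) met none of the 4 lists, beside 44.4% of the whole list, and 206 (22.0%) met 1, beside 34.8%. With 2 lists the shares were 12.1% and 14.7%, with 3 they were 3.10% and 3.66%, and with all 4, met by 26 members, 2.78% and 2.54%, near the background. The second Rad21 list alone was met by 156 members (16.7%), beside 30.1% of the whole list.

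Position and factor overlap went together in the members. At gene starts 200 of 323 members (61.9%, 56.5 to 67.0) met any CTCF or Rad21 peak, and away from them 167 of 591 (28.3%, 24.8 to 32.0). Among the other knockout peaks the same shares were 70.4% (66.2 to 74.2) and 58.3% (56.5 to 60.2). Away from gene starts, Rad21 of the second library was at 139 members (23.5%) against 53.2% of the other knockout peaks, while its share at gene starts was 52.6% of members and 63.7% of the others. CTCF of the second library was at 35.3% of members at gene starts and 13.4% of those elsewhere. The second Rad21 list itself had 15.9% of its peaks at gene starts, the second CTCF list 10.2%, and the first lists 6.09% and 4.82%.

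**Figure D4:**
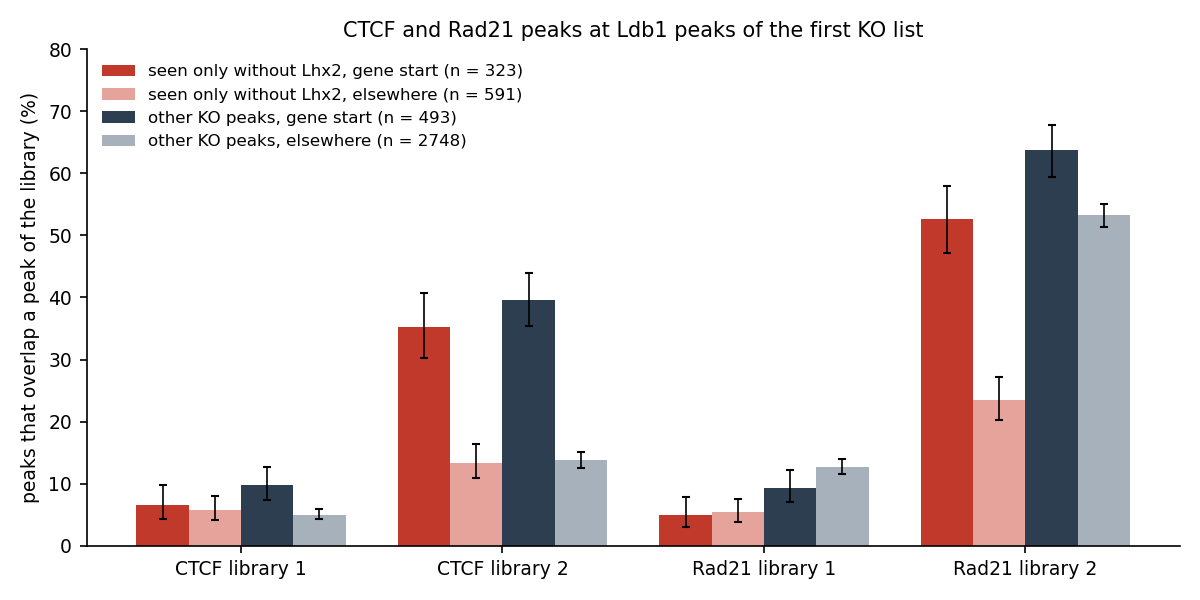
Percent of peaks of the first KO list (vertical axis) that overlap a peak of each of the 4 CTCF and Rad21 libraries, for members and other knockout peaks at gene starts and elsewhere, with 95% Wilson intervals as error bars. Away from gene starts the second Rad21 library meets 23.5% of members (light red) and 53.2% of other knockout peaks (light blue-grey).

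Set against list-only peaks of the libraries with Lhx2, those of the KO libraries had the higher factor overlap, as had the whole KO lists. Any CTCF or Rad21 peak was at 40.0% of list-only peaks in each KO library, at 30.3%, 18.8% and 25.5% in the control libraries and at 12.5% and 11.6% in the Olfr1507 libraries. The mean with Lhx2 was 19.7% ± 8.13 (SD, n = 5), 20.3 percentage points lower (two-sided exact permutation test, p = 0.0476, adjusted p = 0.119). Leaving out the second Rad21 library moved the difference to 10.7 points (exact permutation p = 0.143). Of all peaks, any factor was at 55.6% and 64.6% in the KO lists. It was at 26.2%, 24.0% and 28.3% in the control lists and 38.4% and 26.2% in the Olfr1507 lists. The higher share was thus not particular to list-only peaks, which in both KO libraries lay below their own whole lists. CTCF of both libraries was at 5.88% and 5.71% of KO list-only peaks and at 5.40% ± 2.96 (SD, n = 5) of those with Lhx2 (exact permutation p = 0.905, adjusted p = 0.905). Rad21 of both libraries was at 4.60% and 5.71% against 3.04% ± 2.504 (SD, n = 5; exact permutation p = 0.286, adjusted p = 0.357), and gene bodies held 65.3% and 51.4% against 65.7% ± 5.53 (SD, n = 5; exact permutation p = 0.190, adjusted p = 0.317). None of the 5 measures passed 0.05 after adjustment, which only all 5 at the smallest p could have done. This does not show that the groups were alike.

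The 5 strongest members with a peak in all 4 factor lists were at Stag1, inside Plcb3, a phospholipase C gene (chr19:6954082-6954325, score 16), 9.88 kb from Gm30149 (chr7:73618495-73618738, score 16), inside Pknox2, a homeodomain factor gene (chr9:36976913-36977156, score 14), and inside Pcgf2, a Polycomb subunit gene (chr11:97698766-97699009, score 12). The 5 strongest with none were both Hjurp peaks, the chromosome 18 peak and those near Kcnc4 and Mn1. CTCF and Rad21 peaks under members were of middling or low rank in their own lists: their median percentile was 42.8 and 29.1 in the CTCF lists and 27.9 and 45.7 in the Rad21 lists, beside 41.9, 30.0, 27.9 and 51.9 under the other knockout peaks.

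The second KO library, which the rule did not use, listed a peak at 10 members (1.07%, 0.582 to 1.96), against 383 of the other knockout peaks (11.4%, 10.4 to 12.5) and 9.16% of the whole list. For the remaining 925 members, being seen only without Lhx2 rests on 1 library. At an equal score of 9, 2 of 350 members and 30 of 666 other knockout peaks had a peak in the second list. At scores of 21 and above it was 1 of 15 members and 112 of 294 others (38.1%), whose scores reached 51 against 39 in members. By the same rule the second KO list had 35 peaks of 542 (6.46%), of which 10 (28.6%) were in the first KO list, against 383 of its 507 other peaks (75.5%). The second list was 542 peaks long and the first 4290, so most peaks of the first could not be in the second.

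The 10 members with a peak in both KO lists were mostly at gene starts. Those described here lay inside Gse1 (score 27 in the first list and 13 in the second), inside Foxo6, a forkhead factor gene (19 and 14), and 7.71 kb from Gm51898 (16 and 18). At gene starts were those of Stag1 (16 and 12), Fam219a and its neighbour Dnaic1, a ciliary dynein gene (15 and 12), Socs3, a feedback inhibitor of cytokine signalling (12 and 13), Opa3, a mitochondrial protein gene (12 and 12), and 1810062G17Rik beside Anxa5, an annexin gene (9 and 12). Another lay inside 9430078G10Rik (9 and 13). Of all 10, 6 were at a gene start and 5 met none of the 4 CTCF and Rad21 lists. A further list-only peak of the second list lay inside Jund (chr8:70698681-70698892, score 13), next to but not overlapping a member of the first (chr8:70698283-70698526, score 10).

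Many members had an Ldb1 peak of a cell with Lhx2 close by without touching it. The nearest such peak was under 100 bases away for 60 members, under 500 bases for 225 (24.1%), under 1 kb for 296 (31.7%) and under 100 kb for 902 (96.5%), with a median of 3.34 kb. The members nearest the limit missed a peak by 2, 4, 7, 10 and 10 bases (near Btg1, Clcn6, Iqcb1, Plekha6 and Epb41l3), and the nearest peaks left out overlapped one by 1, 2, 8, 9 and 10 bases (near Rmnd5a, Mfn1, Fam8a1, Ano10 and Usp3). Of the 323 members at gene starts, 16 (4.95%) had an Ldb1 peak with Lhx2 elsewhere in the same window. The rule bars such a peak from touching the member, which itself takes up part of the window, so a low share follows largely from the rule.

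The members were spread over the chromosomes, and 70 (7.49%) lay within 10 kb of another, a share not counted for the other knockout peaks. Chromosome X held 4 members (0.428%) and chromosome Y none. The whole first KO list had 15 peaks on X (0.350%) and the second 1, whereas X held 1.64% to 2.09% of the control lists and 1.37% and 1.74% of the Olfr1507 lists. The low share on X thus held for the whole KO lists and not for the members alone, and the sex of the animals is not given in the labels used here.

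Among genes of the olfactory neuron, 6 of 20 genes of odour detection had a member within 10 kb (Adcy3, Gfy, Gng13, Omp, Reep1 and Rtp2), where 5.05% of all 21779 protein-coding genes did, and 16 of the 20 had another knockout peak, where 11.6% of all did. The lists in this and the next paragraph were chosen with earlier results of these data known, and longer genes have more room for a peak, which was not tested. Omp, the olfactory marker protein gene that also carries the Cre or GFP insert, had members at both ends: chr7:98145562-98145805 (score 18) and chr7:98143178-98143421 (score 11). Adcy3, the adenylyl cyclase of odour signalling, had one at its start (chr12:4133252-4133495, score 11). Gng13, a G protein gamma subunit gene, had one at its start (chr17:25717040-25717283, score 12) and one just outside (chr17:25716128-25716371, score 11). Reep1 and Rtp2, of the families that help receptors reach the cell surface, had one each inside the gene (chr6:71724320-71724563, score 12; chr16:23927626-23927869, score 11).

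Of 22 genes for transcription regulators of these neurons, 7 had a member (Atf5, Dlx5, Ebf2, Ebf3, Ldb1, Rcor1 and Ssbp2) and 12 another knockout peak. The strongest lay 2.31 kb from Dlx5, a homeodomain factor gene (chr6:6875371-6875614, score 19). Ldb1 had a member at its own gene start (chr19:46045107-46045350, score 9), as had Ssbp2, which encodes a partner that stabilises Ldb1 (chr13:91461035-91461278, score 10). Immediate-early genes, which respond quickly to activity or stress, had members at 5 of 18 (Dusp1, Fos, Jun, Junb and Jund) and other knockout peaks also at 5 of 18. The strongest of these lay 2.54 kb from Dusp1, a phosphatase of MAP kinases (chr17:26502928-26503171, score 15), and Jun had one at its start (chr4:95052383-95052626, score 11). Axon guidance genes had a member at 1 of 24 (Efna5), and 18 of 24 had another knockout peak. Of all protein-coding genes 5.05% had a member and 11.6% another knockout peak, so 1 member in a list this short is near the background. LIM factors and other Ldb1 partners had a member at 1 of 20 (Lmx1b), immature neuron genes at 1 of 12 (Dpysl5), synaptic release genes at 2 of 15 (Syn2 and Vamp2), heat shock genes at 2 of 14 (Hsp90ab1 and Hspa5), housekeeping genes at 2 of 16 (Pgk1 and Tuba1a) and CTCF and cohesin genes at 1 of 12 (Stag1). The markers of other cell types of the nose, 14 of basal progenitors, 15 of sustentacular and gland cells and 15 of glia, immune and vascular cells, had no member, and 1 of these 44 genes had another knockout peak. Beside the 5.05% of all protein-coding genes with a member, 44 genes were too few to set a lower share apart.

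Within 10 kb of the 1427 olfactory receptor genes in the table lay 1 of 935 members and 9 of 3355 other knockout peaks, too few to set the shares apart. A member lay 2.18 kb from Olfr1507 (chr14:52487508-52487751, score 10), the receptor gene that marks the Olfr1507+ cells. The deleted gene, Lhx2, had 1 member within 100 kb, at 52.0 kb (score 9), and no member lay within 100 kb of Gt(ROSA)26Sor, where the reporter is inserted. One member overlapped a microRNA hairpin, and none overlapped a tRNA, snoRNA, snRNA or rRNA gene. Of the other knockout peaks, 1 overlapped a tRNA gene, 3 a snoRNA gene and none an snRNA or rRNA gene.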

How the data were processed

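ChIP-seq peak lists of 11 libraries, 1 list per library and not pooled, were used as deposited; 17 samples were not used here. The submitters' processing notes name HOMER 4.7 and Bowtie2 2.3.2 beside STAR 2.5.3a, cutadapt 1.9.1, Picard and SAMtools 1.3.1, and the build mm10, without roles. For peak threshold, control library and filters, the settings were not given in the sources used here. Peak scores were used as the authors deposited them, with unknown scaling between libraries, and served only as ranks inside a list. Depth is unknown. All peaks of a list had 1 width, from 212 to 380 bases for Ldb1, which changes the chance of an overlap.

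Peaks overlapped when they shared at least 1 base. Genes, 49113 after leaving out 340 on scaffolds, and gene start windows came from RefSeq tables of GRCm38.p6; windows were given for 17492 of 21779 protein-coding genes (80.3%) and none on chromosome 18, so gene start shares, taken over the other chromosomes, are undercounts. Shares per library were compared by exact two-sided permutation over libraries, with Benjamini-Hochberg adjustment over 5 tests, after the scripts had been tested on simulated data. Python 3.11.15, pandas 2.3.3 and scipy 1.17.1 were used. Members and gene lists were chosen with earlier results of these data known. Named are the 10 highest-scoring members, the 10 highest also in the second KO list, the 10 highest at a gene start, the 5 highest with all and with none of the factor lists, up to 3 per gene list, and members within 100 kb of 6 genes of the design. Motifs, gene families and the split by shared libraries were added after the lists had been seen. Ties in score were taken in order of chromosome and position. One member that this rule names is not reported here. Alternatives were other overlap rules, windows, score cuts, controls only, a replicate block and leaving out each library.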

Additional observations from a re-analysis of the deposited data

How the results depend on the processing

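The KO excess at gene starts kept its sign in all 20 alternatives (24.4 to 47.9 percentage points), as did any CTCF or Rad21 overlap in 17 (10.7 to 26.1), Rad21 of both libraries in 18 (0.526 to 17.4) and gene bodies in 17 (-22.7 to -0.402). These alternatives include leaving out CTCF or Rad21 libraries, which the gene start and gene body measures do not use. There the values could not move from 36.2 and -7.36 points, so those settings carry no weight for these measures. Likewise, leaving out a CTCF library could not move the Rad21 value, nor a Rad21 library the CTCF value. The CTCF difference, 0.394 points and not past the threshold, reversed to -1.65 against control libraries only, to -0.0239 when no peak within 1000 bases was allowed, to -1.24 in the paired fit with a replicate block, and ran from -0.502 to 7.64 with 1 library left out. The labels give shared replicate numbers but nothing that pairs libraries; the replicate block gave 28.7 points for gene starts and 15.5 for any factor (exact p = 0.5, the smallest that 2 pairs allow). Without either KO library the smallest exact permutation p was 0.167. The share of members at CTCF in both libraries moved from 5.88% to 4.18% with centres within 200 bases, 2.96% with 50% reciprocal overlap, 3.34% in the stronger 50% of each list, 21.7% with at least 1 library, and ran from 5.57% to 21.4% with 1 library left out, the highest without the first CTCF library. Rad21 moved to 3.13% with reciprocal overlap and 34.4% with at least 1 library, and ran from 4.58% to 33.8% with 1 library left out, the highest without the first Rad21 library. Any factor moved to 36.3% by centres, 36.2% by the 1000-base rule and 30.4% by reciprocal overlap, and ran from 23.3% (without the second Rad21 library) to 42.5% with 1 library left out. Gene starts moved to 23.5% in the stronger 50% of each list, where 299 members were left, to 42.2% over peaks whose nearest protein-coding gene had a window (added after seeing the data; KO excess 40.5 points), and to 52.0% and 62.0% within 1 and 2.5 kb of a gene start or end. Gene bodies moved to 61.7% by the 1000-base rule. The cause of these moves was not tested. The depth of the lists is unknown, so no limit of detection can be given for a missing peak.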
